A study of Mus musculus with 6 samples.

Results

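Accessible chromatin was described around the CREB axis: the transcription factor genes Creb1 and Crem, the coactivator genes Crtc1, Crtc2 and Crtc3, the kinase gene Sik1 and the target genes Nr4a1, Nr4a2, Nr4a3 and Ppargc1a. For each of these 10 genes, every interval of the study's consensus set that overlapped the gene body or the 50 kb on either side was taken, which gave 397 of 323483 intervals. The study profiled mouse embryonic fibroblasts by ATAC-seq, an assay that tags open DNA with a transposase. The libraries came in 3 groups of 2. All cells carried M2-rtTA and TetO-Myf6, a doxycycline-controlled transgene for the muscle regulator Myf6, were heterozygous for both alleles and spent 24 h in iMPC medium with 10 ng/mL bFGF. The Myf6 with F/R/C group received 2 µg/mL doxycycline with 5 µM forskolin, 5 µM RepSox and 3 µM CHIR99021. The Myf6 group received 2 µg/mL doxycycline, and the medium group received neither doxycycline nor compounds. Forskolin activates adenylate cyclase, RepSox inhibits the type I TGF-beta receptor and CHIR99021 inhibits GSK3.

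The table used here gives interval positions joined over the experiment, on GRCm38.p6, with no value for a library or group. The groups were therefore not compared, no value below has a replicate error, and the depth behind an interval is unknown. An interval open in a few cells and one weakly open in all cells cannot be told apart. As a check of the cell type, 8 of 8 fibroblast markers (Col1a1, Col1a2, Pdgfra, Pdgfrb, Thy1, Vim, Twist1 and Prrx1) had an interval at the start, as had 72.7% of all protein-coding genes. None of the 3 blood markers (Ptprc, Tyrobp and Adgre1) had one, and Cdh5 was the 1 of 3 endothelial markers and Epcam and Cdh1 the 2 of 3 epithelial markers that did. With so high a share over all genes, these counts say little by themselves.

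Cyclic AMP acts on these genes in a loop. Protein kinase A, released by cAMP, phosphorylates CREB on the cAMP response element (CRE), and the CRTC coactivators move into the nucleus and bind CREB when the salt-inducible kinases no longer phosphorylate them. Nr4a1, Nr4a2 and Nr4a3, which encode orphan nuclear receptors, are induced within minutes to hours in many cells, and Sik1 and the Crem product ICER, both themselves induced, dampen the response. In skeletal muscle, Ppargc1a encodes PGC-1alpha, a coactivator of mitochondrial genes, and Sik1 is a CREB target as well.

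The promoters of the 3 nuclear receptor genes each held 4 copies of the CRE core TGACG, and those of Creb1, Crtc1 and Crtc3 held none. The stretches searched run from 250 bases before to 50 bases after the start and come from RefSeq on GRCm38.p6, which gave 7 of the 10 genes. They are printed for the 3 receptor genes, for Ppargc1a with 1 core and for Creb1 as an example with none, 5′ to 3′ along the gene, with the core in capitals (TGACG on the gene's strand, CGTCA where it lies on the other strand). Nr4a1 lies at chr15:101266596-101266895 (plus strand), Nr4a2 at chr2:57123954-57124253 (minus), Nr4a3 at chr4:48045055-48045354 (plus), Ppargc1a at chr5:51567676-51567975 (minus) and Creb1 at chr1:64532554-64532853 (plus).
Nr4a1: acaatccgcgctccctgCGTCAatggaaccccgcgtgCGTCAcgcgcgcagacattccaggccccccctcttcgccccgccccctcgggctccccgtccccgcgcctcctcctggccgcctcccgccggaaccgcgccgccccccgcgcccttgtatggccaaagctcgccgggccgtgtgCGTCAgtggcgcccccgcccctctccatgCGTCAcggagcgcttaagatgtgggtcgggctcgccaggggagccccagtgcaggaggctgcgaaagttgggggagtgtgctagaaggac
Nr4a2: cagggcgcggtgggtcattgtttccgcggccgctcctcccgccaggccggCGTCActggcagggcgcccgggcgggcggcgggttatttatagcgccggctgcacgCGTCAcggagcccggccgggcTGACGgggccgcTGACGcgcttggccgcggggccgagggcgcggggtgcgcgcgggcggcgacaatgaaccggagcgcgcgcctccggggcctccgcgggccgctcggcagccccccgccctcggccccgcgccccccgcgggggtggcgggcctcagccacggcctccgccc
Nr4a3: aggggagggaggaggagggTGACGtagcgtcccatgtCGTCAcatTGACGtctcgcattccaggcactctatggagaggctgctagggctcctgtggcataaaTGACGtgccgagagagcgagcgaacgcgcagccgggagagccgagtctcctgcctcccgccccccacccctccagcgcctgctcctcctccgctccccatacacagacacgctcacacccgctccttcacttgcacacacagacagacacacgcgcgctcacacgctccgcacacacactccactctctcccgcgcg
Ppargc1a: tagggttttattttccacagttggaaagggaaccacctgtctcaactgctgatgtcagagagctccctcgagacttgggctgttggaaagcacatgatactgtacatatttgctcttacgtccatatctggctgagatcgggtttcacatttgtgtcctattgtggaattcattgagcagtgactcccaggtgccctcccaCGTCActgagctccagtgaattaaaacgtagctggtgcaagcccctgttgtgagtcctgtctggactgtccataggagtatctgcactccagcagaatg
Creb1: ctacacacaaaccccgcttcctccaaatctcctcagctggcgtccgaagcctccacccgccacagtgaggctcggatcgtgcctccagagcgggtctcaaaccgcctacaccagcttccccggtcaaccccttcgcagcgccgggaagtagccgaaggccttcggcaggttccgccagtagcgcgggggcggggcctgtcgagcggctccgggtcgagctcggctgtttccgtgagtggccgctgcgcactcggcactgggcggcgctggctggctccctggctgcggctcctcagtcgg

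At least 1 CRE core was found in 4 of the 7 promoters, against 23.6% of 21262 promoters of protein-coding genes of the same length. At least 4 cores, as in Nr4a1, Nr4a2 and Nr4a3, were found in 0.325% of those promoters, which is 69 promoters of 62 genes. At least 3 cores were found in 1.38% and at least 2 in 6.25%. The cutoff of 4 equals the count of these receptor genes. They were listed as CREB targets, so their cores are not independent of that choice. The core contains a CpG, and promoters differ widely in CpG number. Nr4a1 had 35 CpGs in the 300 bases, Nr4a2 had 52 and Nr4a3 had 26, against a median of 13 over coding promoters. Among the 6651 coding promoters with 22 or more CpGs, 37.0% held a core and 0.917% held at least 4. The full palindrome TGACGTCA was found in none of the 7 promoters, against 2.23% of coding promoters.

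The 4 cores of Nr4a1 began 233, 213, 69 and 40 bases before the start and all lay on the other strand. Read in their own direction, all 4 ran on as TGACGCA, with the 8 bases TGACGCAG, TGACGCAC, TGACGCAC and TGACGCAT. In Nr4a2 the cores began 200, 144, 123 and 111 bases before the start, on both strands, and read TGACGCCG, TGACGCGT, TGACGGGG and TGACGCGC. In Nr4a3 they began 231, 213, 205 and 147 bases before the start and read TGACGTAG, TGACGACA, TGACGTCT and TGACGTGC. TGACGTCT of Nr4a3 shares its first 7 bases with the palindrome. The single core of Ppargc1a began 49 bases before the start and read TGACGTGG. A match describes the letters and not a bound site.

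E-boxes (CANNTG), the motif class bound by Myf6 and other myogenic factors, were searched in the same stretches. They were found in Ppargc1a (6 copies), Creb1 (1 copy) and Nr4a3 (1 copy), so in 3 of 7 promoters against 69.0% of coding promoters. The form CAGCTG was present in Creb1, 217 bases before the start, and in 15.6% of coding promoters. The AP-1 motif TGANTCA was in none of the 7, against 6.99% of coding promoters. TATAAA was in Nr4a2, on the other strand 164 bases before the start, and in 12.6% of coding promoters. Unlike the share for the CRE core, these shares were not taken by CpG number. Of the 7 promoters, all except that of Ppargc1a, with 5 CpGs, had more CpGs than the median coding promoter, which had 13. The E-box count was therefore not read as a trait of these genes. All motifs were read on both strands, every CAGCTG is also a CANNTG, and every TGACGTCA holds 2 cores.

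**Figure D1:**
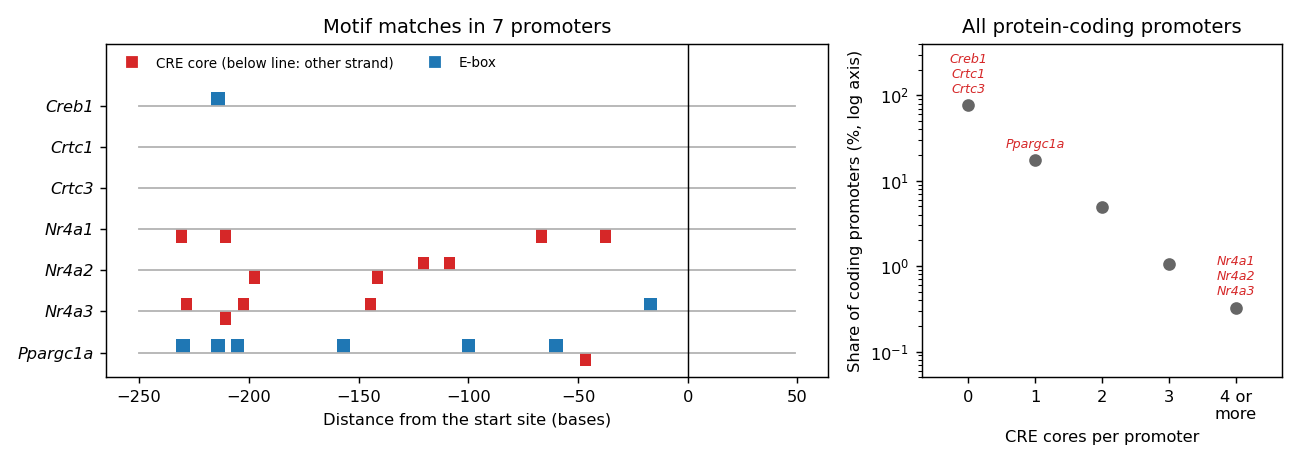
Left, positions of the CRE core (red, below the line where it lies on the other strand) and the E-box (blue) in 7 promoters, in bases from the start site. Right, share of 21262 coding promoters (log axis, percent) by number of CRE cores. Nr4a1, Nr4a2 and Nr4a3 fall in the class of 4 or more, which holds 0.325% of promoters.

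All 7 promoter stretches lay wholly inside an accessible interval, against 54.2% of coding promoters. Each of the 7 genes had an interval within 1 kb of its start, against 71.6% of the 17491 protein-coding genes with a start in the same table, and in each the interval spanned the start base itself (65.3%). These shares differ with CpG number. Of coding promoters with 22 or more CpGs, which include those of all 7 genes except Ppargc1a, 95.6% had the start base in an interval, so the 6 of 6 here is near the background. The Ppargc1a promoter had 5 CpGs, and in that class (0 to 6 CpGs) 20.2% of coding promoters had the start in an interval.

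For Crem, Crtc2 and Sik1 either end of the gene was used. In all 3 an interval lay no more than 1 kb from an end, beside 76.8% of the 4392 protein-coding genes taken this way, and in each an interval spanned an end. Over the 10 genes together, the 10 with such an interval compare with 72.7% of all protein-coding genes.

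The intervals over the starts were of ordinary width for most members. Crtc3 had one of 1954 bp (chr7:80687721-80689674), at percentile 89.1 of 11415 such intervals of coding genes. That of Nr4a2 measured 1501 bp (chr2:57123042-57124542, percentile 65.3), that of Nr4a3 1366 bp (chr4:48044275-48045640, percentile 54.8) and that of Creb1 1324 bp (chr1:64531950-64533273, percentile 51.3). These 3 lay between the quartiles of 1004 and 1652 bp, around a median of 1307 bp, as did Ppargc1a with 1206 bp (chr5:51567437-51568642) and Nr4a1 with 1161 bp (chr15:101266181-101267341). Crtc1 had the narrowest, 832 bp (chr8:70439215-70440046, percentile 15.0). How peaks were called and joined is not given, so widths were not read as strength.

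The intervals were not centred alike on the starts. In Nr4a3 the interval reached 1030 bp before the start and 335 bp beyond it, in Ppargc1a 917 and 288 bp, and in Creb1 854 and 469 bp. In Nr4a2 and Crtc3 the longer arm lay inside the gene, with 539 bp before and 961 bp beyond the start of Nr4a2 and 797 and 1156 bp for Crtc3. Nr4a2 shares its start interval with LOC105244150, a predicted coding gene that overlaps its upstream end, so the interval cannot be given to either gene alone.

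**Figure D2:**
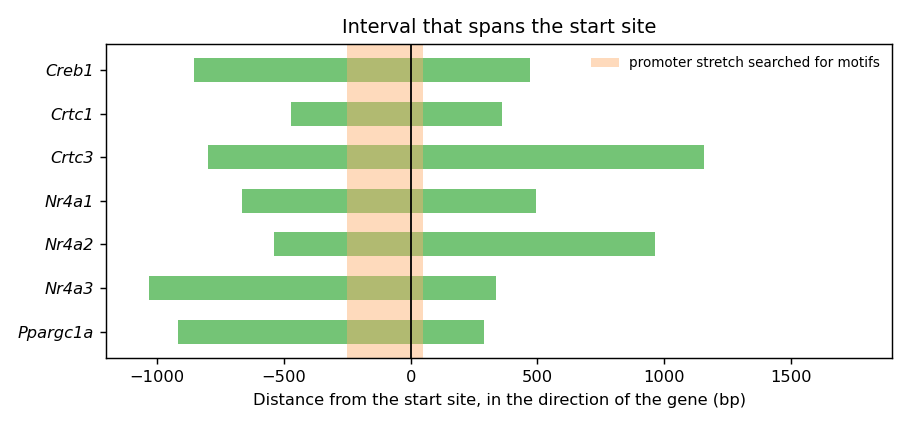
Extent of the interval that spans the start site of 7 genes, in bp along the direction of the gene, with the start at 0. The shaded band marks the 300 bases searched for motifs, which lie wholly inside the interval in all 7 genes.

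Across the whole windows, Nr4a1, Sik1 and Crtc1 were the most densely accessible members and Crem the least. The window of Nr4a1 had 20.2% of its bases inside intervals, percentile 98.9 of 21883 protein-coding genes with windows built the same way. Sik1 followed with 17.6% (percentile 95.6), Crtc1 with 17.0% (percentile 94.2), Crtc3 with 14.1% (percentile 83.1) and Crtc2 with 13.4% (percentile 79.6). Creb1 had 9.56% (percentile 54.6), Nr4a3 8.01% (percentile 44.6), Nr4a2 6.99% (percentile 38.0), Ppargc1a 6.64% (percentile 35.9) and Crem 4.39% (percentile 25.2). The median over the 10 genes was 11.5%, against 8.86% over all protein-coding genes, and 6 of the 10 lay above that median. Places near the median depended on the window. With 50 kb on both sides of the start, Creb1 was at percentile 34.1, Nr4a2 at 45.5, Nr4a3 at 54.5 and Ppargc1a at 58.1. Nr4a1 was highest and Crem lowest either way. The medians were also taken with intervals at the starts of all coding genes left out, or at either end where no start was given. In this comparison, added after seeing the data, the medians were 7.29% for the members and 6.06% for all protein-coding genes.

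**Figure D3:**
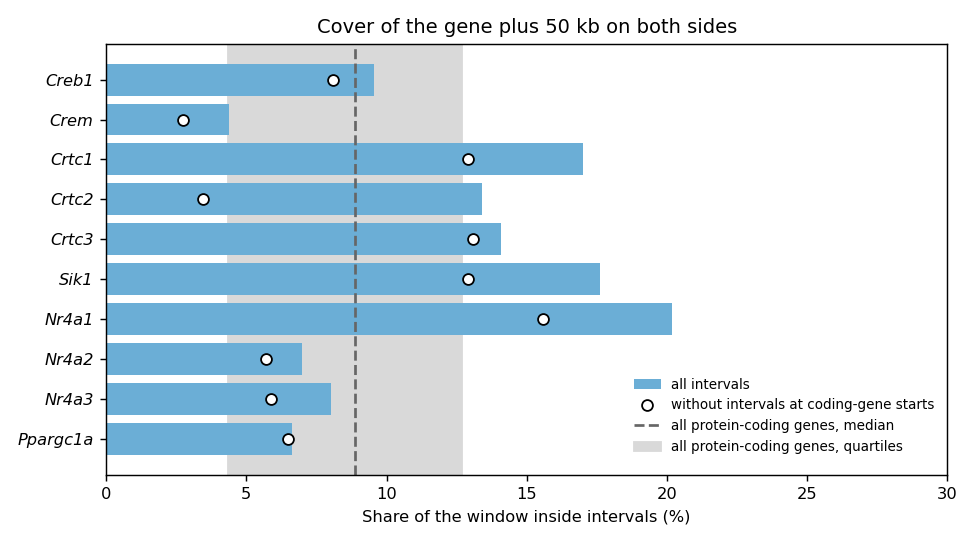
Share of each window (gene plus 50 kb on both sides) inside intervals, in percent, as bars. Open circles give the same without intervals at the starts of coding genes, or at either end where no start was given. The dashed line and grey band give the median (8.86%) and quartiles (4.36 and 12.7%) of all protein-coding genes. Without start intervals Crtc2 has 3.47%, against 13.4% with them, and Nr4a1 is highest either way.

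Of the 397 intervals, 191 overlapped a member's gene body and 206 lay in a flank. Only 15 were at a member's own start or end, and 19 were at the start of another coding gene. Where a coding gene had no start given, either end stood for its start in these counts. The median width of the 397 intervals was 394 bp, against 336 bp over all intervals of the series. The 365 intervals away from any start had a median of 363 bp. Of 55 intervals at least 1000 bp wide, 32 lay at no coding gene's start. Counts by place or by a width of at least 1000 bp were not made over all intervals of the series. They therefore only describe these windows. Around the 50 kb border of the windows, 40 intervals had their midpoint in the outermost 10 kb inside and 41 in the first 10 kb outside, summed over the 10 genes.

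The surroundings of the factor genes Creb1 and Crem differed in density, with 23.3 and 8.75 intervals per 100 kb. Creb1 (chromosome 1, 64532794 to 64604548, gene ID 12912) encodes the leucine-zipper factor CREB. It had 40 intervals, 17 over the gene, 8 before it and 15 beyond its far end. Within 10 kb of its start lay 5 intervals, of which only the start interval was wider than 478 bp. The widest interval near Creb1 measured 1361 bp (64615144 to 64616504) and lay 10595 bp beyond the far end, inside the gene of the methyltransferase Mettl21a. Another of 1237 bp (64600789 to 64602025) lay near the 3′ end of Creb1 itself. The longest stretch without an interval ran for 16.0 kb upstream of the gene.

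Crem (chromosome 18, 3266354 to 3337773, gene ID 12916) encodes activators and, from an internal promoter, the repressor ICER. It had 15 intervals in 171 kb, 8.75 per 100 kb against a median of 18.0 over coding genes. Of these, 10 lay over the gene. The widest, 1478 bp (3336611 to 3338088), spanned the upper end, where the lncRNA gene Gm6225 overlaps. A pair of wide intervals lay further inside, 1083 bp (3280420 to 3281502) and 1012 bp (3270002 to 3271013), and the others over the gene measured 351 bp or less. The position of the ICER promoter is not in the tables used here, so neither was assigned to it. Beyond the upper end, 40.7 kb (3338089 to 3378742) held no interval, the longest such stretch of the 10 windows. The last interval before the border, 1348 bp (3382741 to 3384088), was at the start of Cul2, a scaffold gene of ubiquitin ligases.

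The 3 coactivator genes differed in where their intervals lay. Crtc1 (chromosome 8, 70382352 to 70439702, gene ID 382056) had 51 intervals, 22 of them over the gene, which covered 14.0% of it. Crtc3 (chromosome 7, 80586627 to 80688948, gene ID 70461) had 54, 29 of them over the gene, which covered 17.3%. The median cover of 5581 protein-coding gene bodies of 30 to 120 kb was 8.38%, with an upper quartile of 12.4%. Of the other members in this length class, Nr4a3 had 11.6% of its body covered, Creb1 7.83% and Crem 6.51%. Crtc2 (chromosome 3, 90253858 to 90264125, gene ID 74343) had 19 intervals and 1 over its 10.3 kb body, the interval of 1336 bp at its lower end (90253830 to 90255165).

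Crtc2 sits among other genes. Its window touched 8 other coding genes, and 7 of its 19 intervals lay at their starts, among them 1818 bp at Gatad2b (90292348 to 90294165), 1684 bp at Dennd4b (90264967 to 90266650) and 1670 bp at Rab13 (90219944 to 90221613). Creb3l4, a membrane-bound relative of CREB, lies 9.28 kb away and had an interval of 944 bp. The longest stretch without an interval was 17.4 kb, above the gene. Without start intervals the cover of the Crtc2 window was 3.47% (percentile 28.9), and that of the Crtc1 and Crtc3 windows was 12.9% (percentile 95.5) and 13.1% (percentile 96.2).

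The widest intervals around Crtc1 also lay at an end of a neighbouring coding gene. They were 1698 bp at Comp (70373389 to 70375086), a cartilage matrix gene 0.285 kb from Crtc1, 1561 bp at Klhl26 (70476420 to 70477980) and 1505 bp at Upf1 (70352619 to 70354123), a factor of nonsense-mediated decay. The lncRNA gene Gm51533 overlaps the interval at Comp as well. Over the 9.52 kb that follow the start interval inside Crtc1 there was no interval (70429697 to 70439214). In Crtc3 the widest overlapped the gene itself. These were 1969 bp over the 3′ end (80586130 to 80588098), 1954 bp at the start and 1673 bp in the gene (80666205 to 80667877), 21836 bp from the start. The longest stretch without an interval was 22.5 kb, upstream of Crtc3 at Iqgap1.

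Sik1, the kinase that holds CRTC proteins in the cytoplasm, had the highest density. The gene (chromosome 17, 31844248 to 31855804, gene ID 17691) had 38 intervals, 34.1 per 100 kb (percentile 97.4), and no other coding gene touches its window. The widest interval of all 10 windows, 2740 bp (31841457 to 31844196), ended 51 bp before the lower end of Sik1, where the lncRNA gene Gm41564 overlaps. The next, 2326 bp (31854795 to 31857120), spanned the upper end. The third, 1303 bp (31813855 to 31815157), lay 29090 bp below the gene. The Sik1 intervals were spread over both flanks, with 18 below and 15 above the gene, and the longest stretch without one was 7.98 kb. Without start intervals, which here include those at both ends of Sik1, its cover was 12.9% (percentile 95.6).

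**Figure D4:**
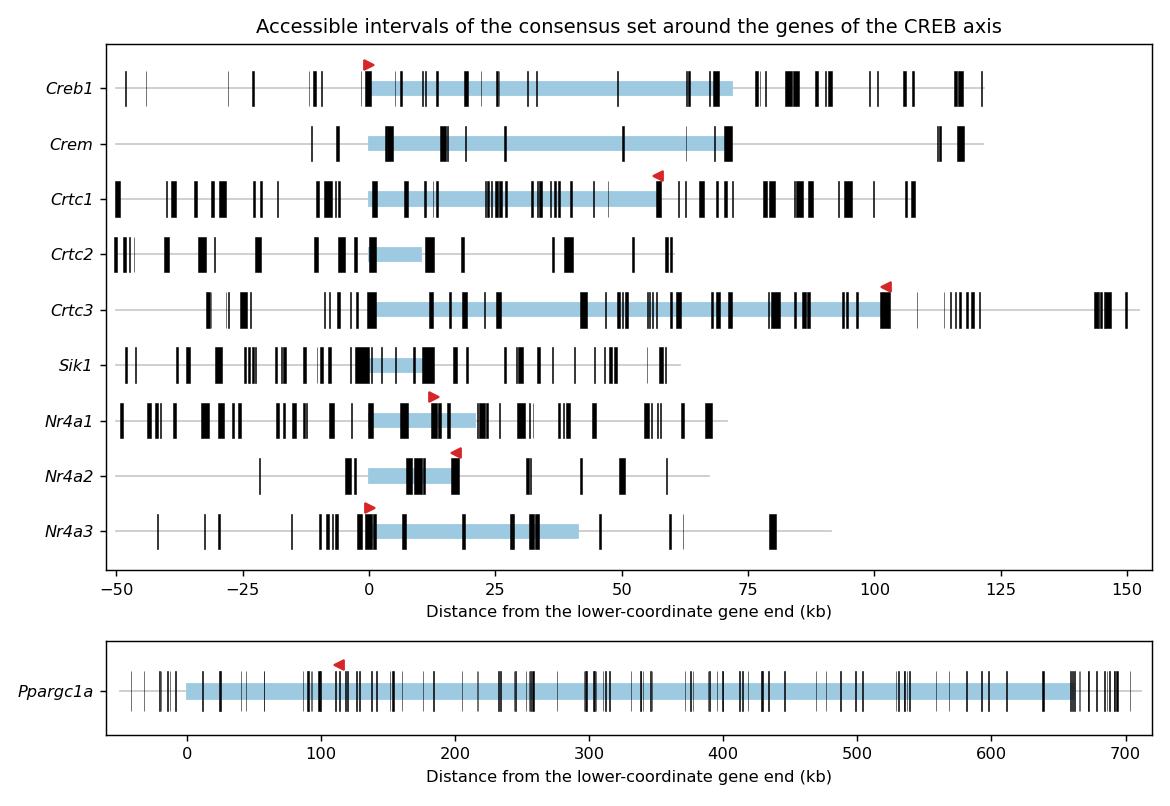
Intervals (black, to scale with a hairline outline) over the gene body (blue) and 50 kb on both sides (grey line) of 9 genes, and of Ppargc1a on its own scale, in kb from the gene's lower-coordinate end. Red arrows mark the start and direction of the 7 genes with a RefSeq start. Crem shows the 40.7 kb without an interval, and Sik1, Nr4a1 and Crtc1 are filled on both sides of the gene.

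Among the nuclear receptor genes, which each had the 4 CRE cores printed above, the surroundings were not alike. Nr4a1 (Nur77, chromosome 15, 101253902 to 101274795, gene ID 15370) had 38 intervals, 31.4 per 100 kb, split into 19 upstream and 19 downstream of its start. The start interval was followed at once by one of 726 bp (101267478 to 101268203) and then one of 591 bp (101269387 to 101269977). The widest, 1697 bp (101259932 to 101261628), lay 6066 bp upstream of the start used here, inside the annotated gene, whose lower end lies 12.9 kb upstream of that start and also had an interval (980 bp, 101253778 to 101254757). The gene Acvr1b, which encodes an activin receptor, overlaps the far border of the window.

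Nr4a1 lies near other accessible genes too, 4 of its intervals being at their starts. The interval of 1508 bp at Atg101 (101283230 to 101284737), an autophagy gene, was the next widest of its window, and one of 1483 bp (101220660 to 101222142) lay at the lncRNA gene AU021063. Its longest stretch without an interval was 9.47 kb. Without start intervals Nr4a1 still had 15.6% of its window covered (percentile 99.2).

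Nr4a2 (Nurr1, chromosome 2, 57106830 to 57124003, gene ID 18227) had 12 intervals, the fewest of the 10 genes, or 10.2 per 100 kb, and its body was covered over 21.5%. The median cover of 6454 coding gene bodies of 10 to 30 kb was 9.95%, with an upper quartile of 15.1%. Nr4a1, in the same length class, had 24.1% of its body covered, Sik1 18.5% and Crtc2 12.7%. Inside Nr4a2, an interval of 1420 bp (57115814 to 57117233) had its midpoint 7480 bp from the start, another of 1084 bp (57114188 to 57115271) had it at 9274 bp, and one of 1242 bp (57102096 to 57103337) lay 3492 bp beyond its 3′ end. The outer 28.3 kb of that flank were empty.

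Nr4a3 (NOR-1, chromosome 4, 48045078 to 48086447, gene ID 18124) had 21 intervals, of which 8 lay within 10 kb of the start, percentile 92.8 of coding genes. Upstream, 5 intervals preceded the start interval in that stretch, with the widest at 1031 bp (48042673 to 48043703), 2117 bp before the start. Downstream, one of 403 bp (48045951 to 48046353) and one of 732 bp (48051595 to 48052326) followed. The interval of 1240 bp at Stx17 (48124281 to 48125520), a syntaxin gene, was the widest elsewhere, and the 17.0 kb before it held no interval. Nr4a1 had 6 intervals within 10 kb of its start (percentile 77.5) and Nr4a2 had 4 (percentile 52.3).

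Ppargc1a (chromosome 5, 51454249 to 52115853, gene ID 19017) spans 662 kb and held 109 intervals, the most of the 10 genes. Per 100 kb it had 14.3, below the median of 18.0. The RefSeq start used here lies far inside the annotated gene, and 87 of the intervals lay upstream of it. Transcripts from upstream first exons are known for Ppargc1a in mouse muscle, liver and brain. The far upstream end of the gene, 548 kb from that start, had an interval of 1148 bp spanning it (52115619 to 52116766), next to one of 1111 bp (52114004 to 52115114) and one of 927 bp (52112925 to 52113851).

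Nearer to the start, an interval of 512 bp (51572430 to 51572941) had its midpoint 4960 bp upstream of the Ppargc1a start. It was followed by one of 508 bp at 6228 bp upstream (51573700 to 51574207) and one of 850 bp at 13130 bp upstream (51580430 to 51581279). The widest of the window, 1417 bp (51551835 to 51553251), lay 15182 bp downstream of the start, another of 1199 bp (52147037 to 52148235) lay 31183 bp beyond the far upstream end, and a stretch of 28.6 kb inside the gene (51512232 to 51540871) held none. The gene body was covered over 6.22%, against a median of 4.12% and an upper quartile of 6.52% of 226 coding genes of at least 500 kb.

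The pathway around the 10 genes was read from 4 lists of 30 genes. An interval at the start, or at an end where no start was given, was found in 28 of 30, against 72.7% of all protein-coding genes. The 5 genes of the CREB family and nuclear coactivators all had one. Creb3 (17.0% of its window covered) and Atf1 (10.8%), the close relative of CREB, led, and Ep300 (8.01%), the acetyltransferase p300, was lowest. All 9 genes of protein kinase A subunits and inhibitors had one, with the regulatory subunit genes Prkar1b (15.1%) and Prkar1a (14.6%) highest and the inhibitor gene Pkib (2.71%) lowest.

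Of the 8 kinase and phosphatase genes acting on CREB or CRTC proteins, 7 had such an interval. Stk11 (23.8% of its window, percentile 99.9), the LKB1 kinase that activates SIK proteins, and Rps6ka4 (14.6%), a CREB kinase, were highest, and Rps6ka5 (6.21%) was lowest. Camk4, a calcium-dependent CREB kinase of neurons and T cells, had none at an end. Of 8 other CRE-driven targets 7 had one, with the clock gene Per1 (20.1%) and the phosphatase gene Dusp1 (17.3%) highest and the somatostatin gene Sst (3.04%) lowest. Pck1, the gluconeogenic gene of liver, had none. The medians of the 4 lists were 10.3, 13.3, 9.18 and 12.9%, against 8.86% over all protein-coding genes.

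The CRE core was also counted in the promoters of those lists. It was present in 20 of the 25 pathway genes with a RefSeq promoter, against 26.2% of 17491 protein-coding genes, and in 12 of the 15 with a single start, against 23.4%. Pathway promoters had a median of 31 CpGs, against 15 over all genes, each taken at its most CpG-rich start. The full palindrome was found in Sst, Dusp1, Areg, Creb5 and Prkar1a, so in 5 of 25, against 2.54%, and in 3 of the 15 with a single start, against 2.29%. Several targets were listed because a CRE is known in them, so their count is not independent of the motif.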

How the data were processed

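ATAC-seq libraries of 3 groups with 2 each were made from 50k cells each with 12 amplification cycles, per the labels' protocols. Whether libraries of 1 group came from separate cultures is not said. BWA, MACS2 and DESeq2 with GRCm38.p6 are named in the submitters' processing notes, without roles or versions. HOMER's annotatePeaks was run by the authors on consensus peaks with GENCODE release 23 for mouse, per the file headers. Peak calling, thresholds, joining and pooling are not given in the sources used here. Positions as deposited (1-based start and end) were used. The deposited score is 0 in every row and was not used.

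Gene bodies came from the RefSeq gene table of GRCm38.p6 (21883 protein-coding genes on chromosomes 1 to 19, X and Y), and starts and strand from RefSeq promoters of 300 bases (17491 of those genes, 2761 with more than 1 start). An interval counted with an overlap of at least 1 bp, and as at a start within 1 kb. For coding genes with no start given, either end stood for the start, also where start intervals were left out. Percentiles are ranks among protein-coding genes, not matched on length. No test was run, because no value per library or group was used, and depth and precision are therefore unknown. The members and lists were chosen with earlier results of these data known. All 10 members were named, with the start interval, the 3 widest intervals and the longest empty stretch of each; other intervals were picked after their values were seen. Per pathway list, the 2 highest, the lowest and every gene with none at the start were named. Neighbours were named from those whose body overlaps a window. Interval counting and motif search were tested on simulated data. Python 3.11.15, numpy 2.4.6, pandas 2.3.3 and matplotlib 3.10.9 were used.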

Additional observations from a re-analysis of the deposited data

How the results depend on the processing

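No paired analysis was possible because no value per library was used, and the planned tests between groups, with and without the replicate block or each library, were not run. All 10 members kept an interval at the start when it had to span the start base, when it had to be at least 600 bp wide and when either gene end was used. Over all protein-coding genes the share was 64.7, 64.6 and 74.7% under these, against 72.7%. Of the 30 pathway genes 26 and 27 had one under the first 2 of these, against 28. The number of member intervals was 238 with a flank of 10 kb and 245 with intervals of at least 300 bp, against 397, and it was 566 with a flank of 100 kb and 395 by midpoint. The members' median cover was 15.6% with a flank of 10 kb (9.43% over all protein-coding genes), 9.34% with 100 kb (8.69%), 9.92% with intervals of at least 300 bp (7.37%), 11.7% for 50 kb on both sides of the start (8.90%, added after seeing the data) and 7.29% without start intervals (6.06%, likewise), against 11.5% (8.86%). It lay above the background in each, by the least with the flank of 100 kb. The palindrome was in 0 of 7 promoters and the core in 4. An interval's presence, not its signal, is what these values rest on, and the depth that limits it is unknown.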

Other observations

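The CRE core and open promoters went together over all coding promoters, with smaller differences in percent within 3 wide classes of CpG number. The start base lay in an interval in 97.1% of the 69 promoters with at least 4 cores, 93.3% of those with 3, 86.9% with 2, 79.8% with 1 and 58.5% of those with none. The median number of CpGs over the same classes was 30, 26.5, 23, 20 and 9. With 22 or more CpGs the share was 95.9% of 2462 promoters with a core and 95.4% of 4189 without. With 7 to 21 CpGs it was 83.3% of 1883 with a core and 81.1% of 5138 without, and with 0 to 6 CpGs it was 28.1% of 675 with a core and 19.5% of 6915 without. Promoters of 1 gene can share sequence and interval, the classes were formed after the data were seen, and no test was made.

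The coding promoters with the most cores, 6 each, were those of Galnt11, which encodes a glycosyltransferase, and Mia3, which encodes a collagen export protein. Both lay wholly inside an interval, as did 95.7% of the coding promoters with at least 4 cores. Galnt11 and Mia3 were chosen after their values were seen.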
